A study of Mus musculus with 6 samples.

Results

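The genes described here encode the enzymes that add or remove methyl groups on histone H3 lysines 4, 27, 9, 36 and 79, together with subunits of their complexes. The 41 members were taken as a named list, out of 21883 protein-coding genes, and were grouped by the residue that the enzyme acts on. H3K4me3 was profiled by native chromatin immunoprecipitation in cells labelled as CD8+ tumour-infiltrating lymphocytes from E0771 tumours, a mouse mammary tumour line, in C57BL/6 mice. One group was wild type and the other carried a Cre-mediated deletion of Atg5, an autophagy gene required for autophagosome formation. The labels give neither the promoter that drove Cre nor the age or number of the mice. Each genotype had 1 H3K4me3 library, so no difference below has a replicate check and no test was possible. The series lists 6 samples, and the 4 others, for H3K27me3 and input, were not analysed here.

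H3K4me3 is laid down at active gene starts by the COMPASS family of complexes, in which a SET-domain enzyme (SETD1A, SETD1B or a KMT2 protein) works with the shared core of WDR5, RBBP5, ASH2L and DPY30. KDM5 and KDM1 enzymes take H3K4 methylation off. H3K27me3 is made by Polycomb repressive complex PRC2 and removed by KDM6A and KDM6B, H3K9 methylation marks silent chromatin, and H3K36 and H3K79 methylation is placed over transcribed gene bodies. In CD8+ T cells, EZH2, SUV39H1 and DOT1L are known for roles in differentiation and lineage stability.

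The wild-type list held 48546 regions covering 71.3 Mb and the knockout list 46565 regions covering 73.1 Mb. Neither list states a sequencing depth. At the 5′ end of Atg5 (chromosome 10, 44268339), 2926 bp were covered in wild type and 2705 bp in the knockout. Since the deleted part of the gene is not named, this value does not check the genotype. The library labelled wild type went against its cell label: of 18 T cell markers, 10 had no coverage there, among them Cd8a, Cd3e and Bcl11b, and 5 were marked, against 18 in the knockout. Summed over the 18 markers, covered length was 6109 bp in wild type and 76488 bp in the knockout, and all 18 were longer in the knockout. Of 16 myeloid markers, 10 were shorter in the knockout and 3 longer, with sums of 24097 and 17407 bp and C1qa, C1qb and C1qc at 0 in both. Epithelial tumour markers summed to 14870 and 19159 bp, with 6 of 14 longer in the knockout and 6 shorter. Fibroblast and endothelial markers summed to 25182 and 21736 bp, with 3 of 15 longer and 8 shorter. B cell markers summed to 1307 and 4599 bp, with 3 of 10 longer, 1 shorter and 6 at 0 in both lists. The part of cell makeup in the differences below was not tested. In a mixed population, the share of cells that carry the mark and its extent per cell cannot be told apart.

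A gene was called marked where a deposited region fell at least in part within 1 kb of its 5′ end. Of the 41 members, 39 were marked in wild type and 39 in the knockout, in a background of 59.5% and 61.1% of all protein-coding genes. None was marked in the knockout only (background 3.24%) or in the wild type only (background 1.66%). The members marked in neither list were Dpy30, the small core subunit of the H3K4 complexes, and Kdm4c, an H3K9 demethylase. Both have a listed start further inside the gene, and that start was marked in both lists. The 300 bases around each pair of starts are shown here because the marked and unmarked starts differ in their CpG dinucleotides, which are in capitals. All are from RefSeq on GRCm38.p6, written 5′ to 3′ on the strand of the gene.
Dpy30 outer start, chr17:74323895-74324194, minus strand: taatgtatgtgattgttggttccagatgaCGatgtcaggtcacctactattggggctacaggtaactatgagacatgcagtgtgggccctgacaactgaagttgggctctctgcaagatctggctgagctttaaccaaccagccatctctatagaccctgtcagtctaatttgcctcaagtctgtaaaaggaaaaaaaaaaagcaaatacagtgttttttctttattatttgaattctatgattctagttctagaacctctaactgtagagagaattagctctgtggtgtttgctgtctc
Dpy30 inner start, chr17:74316384-74316683, minus strand: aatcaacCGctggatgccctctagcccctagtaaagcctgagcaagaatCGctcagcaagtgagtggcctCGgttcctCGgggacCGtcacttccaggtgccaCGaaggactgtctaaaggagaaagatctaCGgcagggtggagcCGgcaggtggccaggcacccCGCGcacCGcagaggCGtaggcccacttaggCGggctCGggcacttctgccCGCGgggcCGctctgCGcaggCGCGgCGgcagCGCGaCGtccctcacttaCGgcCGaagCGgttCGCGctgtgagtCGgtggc
Kdm4c outer start, chr4:74242247-74242546, plus strand: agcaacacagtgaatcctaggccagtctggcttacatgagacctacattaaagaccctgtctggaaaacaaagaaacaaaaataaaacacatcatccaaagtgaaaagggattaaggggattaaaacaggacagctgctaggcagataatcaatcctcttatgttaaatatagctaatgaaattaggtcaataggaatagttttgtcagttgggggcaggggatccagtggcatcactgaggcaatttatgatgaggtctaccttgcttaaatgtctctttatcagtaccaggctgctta
Kdm4c inner start, chr4:74251629-74251928, plus strand: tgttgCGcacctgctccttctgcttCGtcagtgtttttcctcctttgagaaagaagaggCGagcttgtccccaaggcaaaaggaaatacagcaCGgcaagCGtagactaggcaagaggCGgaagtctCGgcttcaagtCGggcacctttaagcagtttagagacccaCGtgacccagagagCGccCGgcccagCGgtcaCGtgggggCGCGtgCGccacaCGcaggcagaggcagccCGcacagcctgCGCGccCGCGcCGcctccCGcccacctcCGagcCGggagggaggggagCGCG

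The outer Dpy30 start held 1 CpG and had 0 bp of coverage within 2.5 kb in both lists. The first of its 3 inner starts, 7511 bp further in, held 30 CpGs, with 2549 bp covered in wild type and 2355 bp in the knockout. At Kdm4c, the outer start held 0 CpGs and 0 bp of coverage in both lists. Its inner start, 9382 bp away, held 28 CpGs, with 2525 bp covered in wild type and 2726 bp in the knockout. For both genes, then, the mark lay at the CpG-rich start, and its length was similar in the lists.

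The RefSeq table listed 43 starts for 29 of the members, and 40 of these starts were marked in both lists. The remaining 3 were marked in neither. They were the outer starts of Dpy30 and Kdm4c and the innermost of 3 starts of Kdm3a, an H3K9 demethylase, which held 0 CpGs. Marked starts held 11 to 56 CpGs, with a median of 28. Both lists marked 58.6% of the 21262 starts listed for protein-coding genes. Of the 2416 starts with at most 1 CpG, 91.3% were marked in neither list and 6.25% in both. The share marked in both was 86.5% for the 11636 starts with at least 11. These limits were chosen after the members' values were seen. The members' starts were thus marked or unmarked like most starts of their CpG content. Neighbouring starts of 1 gene share sequence and regions, so the 43 starts are not independent.

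**Figure D1:**
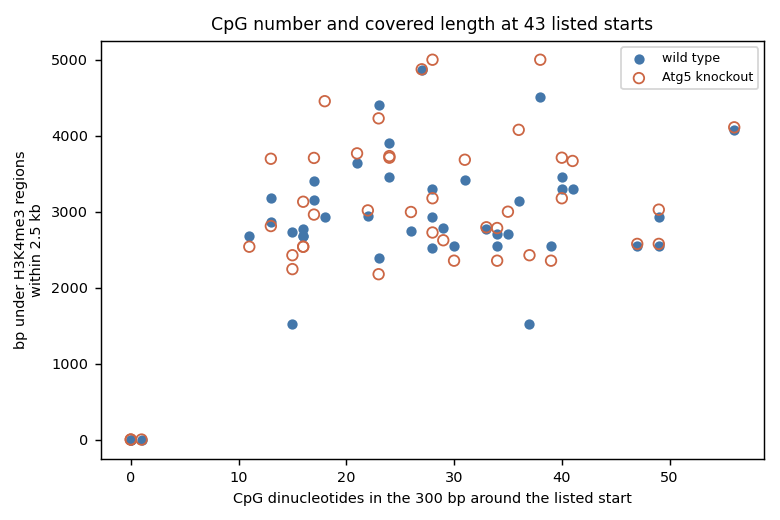
Number of CpG dinucleotides in the 300 bp around each of 43 listed starts (x axis) against the bp under H3K4me3 regions within 2.5 kb (y axis) in wild type (filled) and the Atg5 knockout (open). The 3 starts with 0 or 1 CpG sit at 0 bp in both lists, apart from the 40 others.

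Among the motifs searched for, the most frequent was about as common in members as in marked genes at large. It was GGGCGG, bound by SP and KLF factors and found on either strand in 19 of 29 member promoters (65.5%), against 66.2% of promoters of genes marked in both lists and 46.3% of all promoters. CCAAT was found in 12 members (41.4%), against 39.4% of those promoters. TATAAA was found in 0 members, against 6.78%. The ETS motif CCGGAAG was found in 2 members, Setdb1 and Dot1l (6.90%, against 18.8% of promoters of genes marked in both lists). TTCGCGC or TTCCCGC, bound by E2F factors, was found in Suz12 and Suv39h2 (6.90%, against 11.6%), and GCATGCG, bound by NRF1, in 0 (against 6.63%). The 29 member promoters include the unmarked outer starts of Dpy30 and Kdm4c, whereas the comparison set holds marked genes only. Neither of these starts holds GGGCGG, and that of Dpy30 holds CCAAT. None of these motifs holds another. A match says only that the letters are present in this window of 300 bp.

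Covered length is the stretch of DNA under regions in a window of 2.5 kb each way from the 5′ end, at most 5001 bp. Over the 39 marked members it ranged from 896 to 5001 bp in wild type and from 1920 to 5001 bp in the knockout. In the knockout 26 of the 39 (66.7%) were longer and 12 shorter, with Kmt2e at the full 5001 bp in both. Over all protein-coding genes, marked or not, 30.7% were longer and 34.4% shorter, 9.77% gained at least 500 bp and 6.48% lost as much. Among the 12667 genes marked in both lists, 45.7% were longer and 53.2% shorter. The median difference, knockout minus wild type, was 103 bp over the marked members and −23 bp over all genes marked in both lists. Most of the members' differences were small: 5 gained at least 500 bp and 1 lost as much, against backgrounds of 12.1% and 8.70%. The share of such gains among the members, 12.8%, was near that background. Just inside and outside these limits lay Kdm5c (511 bp), Setd2 (492 bp) and Setdb1 (−491 bp). In the 2.5 kb window the members thus leaned to the knockout in count, while large gains were about as frequent as among other marked genes. Within 1 kb of the 5′ end, 11 of the 39 were longer (28.2%) and 6 shorter (15.4%), against 30.7% and 34.9% of genes marked in both lists, with a median difference of 0 bp for both. The share of longer members there was near the background, and the share of shorter members was below it. A gene whose regions fill this narrower window in both lists cannot differ in it. These shares therefore do not show whether the lean was absent near the start. Of the longest gains, that at Suv39h1 was 745 bp within 1 kb, that at Kdm2b 339 bp, that at Nsd1 227 bp and that at Kmt2a 22 bp, so most of the added length at the last 3 lay further out. Kdm5c could not differ within 1 kb (0 bp), since its region filled that window in both lists.

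**Figure D2:**
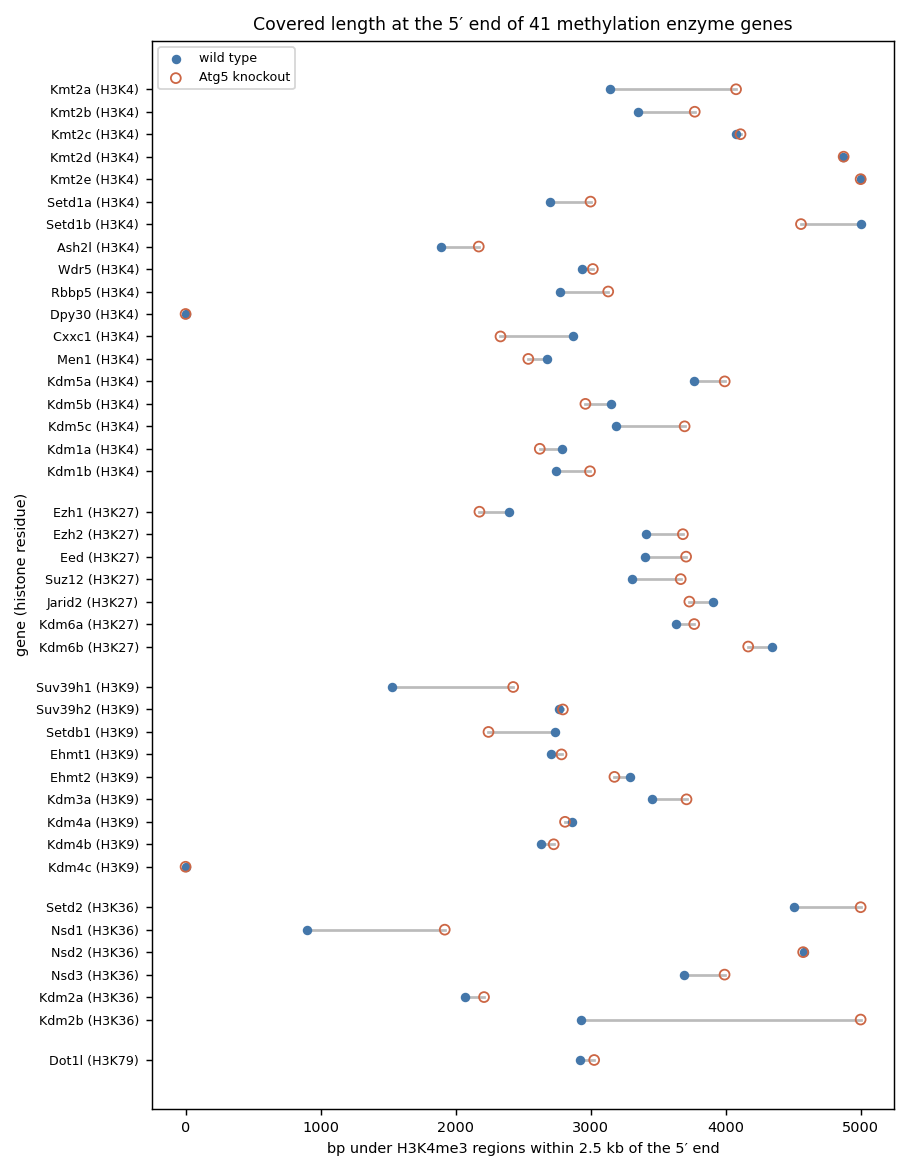
Covered length (bp under H3K4me3 regions within 2.5 kb of the 5′ end, x axis) for each of the 41 members (y axis, by residue), in wild type (filled) and the Atg5 knockout (open), 1 library each. Kdm2b, Nsd1, Kmt2a and Suv39h1 show the longest gains, and Dpy30 and Kdm4c sit at 0 bp in both.

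The 7 H3K4 methyltransferase genes were all marked, and 5 were longer in the knockout and 1 shorter, with a median difference of 36 bp. Kmt2a, which encodes MLL1, stood apart with 3146 bp in wild type and 4078 bp in the knockout. Its 5′ end (chromosome 9, 44881289, minus strand) lay in a gap between 2 regions in both lists. The upstream region ended 378 bp before the start in the knockout and 385 bp before it in the wild type, whereas the downstream region reached 1649 bp into the gene in wild type and 3152 bp in the knockout. A further 3 regions inside Kmt2a were in the knockout list only. Over the gene body, 1417 bp were covered in wild type and 6020 bp in the knockout.

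Differences at the remaining methyltransferases of this group were smaller at the 5′ end. Kmt2b, which encodes MLL2, had 3353 bp in wild type and 3772 bp in the knockout, at a boundary 624 bp from Zbtb32. Kmt2c and Kmt2d, which encode the enhancer H3K4 monomethyltransferases MLL3 and MLL4, had 4075 against 4111 bp and 4872 against 4875 bp. A region at the far end of Kmt2d, next to Prkag1, was 2341 bp wide in wild type and 3498 bp in the knockout. In both lists it lay only in part within the gene bounds. Kmt2e, a family member thought to lack methyltransferase activity of its own, lay in a domain of 10388 bp in wild type and 12382 bp in the knockout. A domain here is a set of regions joined over gaps of up to 1 kb. Setd1b had 5001 bp in wild type and 4559 bp in the knockout, in domains of 11135 and 11410 bp, and its boundary lies 232 bp from Rhof. Setd1a had 2701 against 3000 bp. Setd1a and Setd1b encode the catalytic subunits of the complexes that make most H3K4me3.

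Of the core and targeting subunits, Rbbp5 had 2772 bp in wild type and 3131 bp in the knockout, Wdr5 2938 against 3017 bp, and Ash2l 1889 against 2172 bp. Men1, which encodes menin and tethers the MLL1 and MLL2 complexes, had 2677 against 2539 bp. Cxxc1 encodes the CpG-binding subunit of the SETD1 complexes and had the longest loss of all members, with 2871 bp in wild type and 2333 bp in the knockout. In both lists its main region spanned the boundary used (chromosome 18, 74216212), from −1397 to 1256 bp in wild type and from −1257 to 1075 bp in the knockout. A weaker region on the outer side ran to −2284 bp in the wild type, inside the window, and to −2538 bp in the knockout, outside it. The loss at Cxxc1 was thus made up of small shifts at region edges, with the main region present in both lists. The difference was −321 bp with the 20000 strongest regions of each list. Within 1 kb of the boundary it was 0 bp, where the main region filled the window in both lists and no difference could show.

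The H3K4 demethylase genes were marked in both lists. Kdm5c, on the X chromosome, had 3186 bp in wild type and 3697 bp in the knockout, and Kdm5a had 3768 against 3994 bp at a boundary 270 bp from the start of Ccdc77. Kdm5b had 3155 against 2962 bp. Its domain was 6925 bp wide in wild type and 3158 bp in the knockout, which was the largest narrowing among the members. An upstream region was present in both lists, from −4670 to −2063 bp in wild type and from −4404 to −2171 bp in the knockout, and the gap to the next region was under 1 kb in the wild type alone. Without joining across gaps, the region at the start ran from −1089 to 971 bp in wild type and from −828 to 1024 bp in the knockout. Kdm1a, which encodes LSD1, had 2785 against 2624 bp, and Kdm1b, whose start lies 282 bp from that of Tpmt, had 2747 against 2996 bp.

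The PRC2 genes Ezh2, Eed and Suz12 were each longer in the knockout, by 272 to 364 bp. Ezh2, the main catalytic subunit in dividing cells, had 3412 bp in wild type and 3684 bp in the knockout. Eed, which binds H3K27me3, had 3406 against 3708 bp, and Suz12, the scaffold of the complex, had 3304 against 3668 bp. Ezh1, the paralogue found in resting cells, had 2396 against 2177 bp. Jarid2, a PRC2 cofactor, had 3907 against 3732 bp at its start but more coverage in the gene body, 6092 against 9930 bp. The joined Ezh2 domain was wider in the wild type, 4313 against 3684 bp, where a separate region from 2243 to 2921 bp after the start was joined to it.

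The H3K27 demethylase genes were broadly marked. Kdm6b, which encodes the inducible demethylase JMJD3, had the widest domain of any member in both lists, 14276 bp in wild type and 14169 bp in the knockout. Regions covered 51.6% of its gene body in wild type and 49.9% in the knockout. Kdm6a, the X-linked demethylase UTX, had 3635 against 3768 bp at its start (chromosome X, 18162575, plus strand). Over its gene body, 5792 bp were covered in wild type and 13678 bp in the knockout. Uty, its Y-linked relative, had 0 bp in both lists. Kdm6a and Kdm6b thus contrasted: the first differed inside the gene and the second had nearly equal coverage throughout.

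Among the H3K9 methyltransferase genes, Suv39h1 had 1526 bp in wild type and 2427 bp in the knockout, a gain of 901 bp. It encodes an enzyme of heterochromatic H3K9me3. In the wild type, 2 short regions flanked its start (chromosome X, 8074760, minus strand), from −718 to −96 bp and from 557 to 1459 bp. In the knockout, 1 region ran from −811 to 1615 bp and closed that gap. The wild-type regions had authors' folds of 9.88 and 6.50 in their own list, whose median fold was 7.81, and the knockout region had 17.97 where the median was 8.02. With the 20000 strongest regions of each list, the wild-type regions were not retained and the difference was 2427 bp. Suv39h2, its paralogue, had 2766 against 2795 bp. Setdb1, which silences retroelements, had 2735 against 2244 bp. The region ended 2259 bp after the start in wild type and 1779 bp after it in the knockout. Ehmt1 and Ehmt2, which encode the H3K9me2 enzymes GLP and G9a, had 2708 against 2785 bp and 3295 against 3177 bp.

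The H3K9 demethylase genes differed by at most 256 bp. Kdm3a had 3455 bp in wild type and 3711 bp in the knockout. Kdm4a had 2865 against 2811 bp and held the highest authors' fold among the members in the knockout list, 68.8. Kdm4b had 2636 against 2727 bp. Dot1l, the H3K79 methyltransferase gene, had 2924 against 3027 bp at its start and 2303 against 3564 bp over the gene body.

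Of the 39 marked members, 2 gained over 1 kb and 0 lost as much, against 4.54% and 1.61% of genes marked in both lists. The share of such gains was near that background. Both were H3K36 genes, Kdm2b and Nsd1, and Nsd1 was measured from a gene boundary without a listed start. Kdm2b encodes a demethylase with a CXXC domain that binds unmethylated CpG islands and recruits a variant PRC1 complex. Its outer start is shown because it had the longest gain of all members, with its 28 CpGs in capitals (RefSeq, GRCm38.p6, 5′ to 3′).
Kdm2b outer start, chr5:122989050-122989349, minus strand: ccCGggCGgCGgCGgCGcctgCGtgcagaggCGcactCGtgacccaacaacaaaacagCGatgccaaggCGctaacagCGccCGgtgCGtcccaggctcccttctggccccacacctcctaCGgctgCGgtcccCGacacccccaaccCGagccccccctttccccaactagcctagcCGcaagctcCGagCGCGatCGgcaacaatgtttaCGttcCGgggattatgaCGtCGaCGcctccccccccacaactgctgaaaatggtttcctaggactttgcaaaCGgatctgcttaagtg
Covered length at this start was 2931 bp in wild type and 5001 bp, the whole window, in the knockout. Wild-type regions ran from −1329 to −569 bp and from −229 to 1940 bp, whereas a single knockout region ran from −3131 to 2546 bp. The inner pair of Kdm2b starts, 88732 bp away, had 2546 bp in wild type and 2576 bp in the knockout. Within 1 gene the difference was thus long at the outer start and short at the inner ones. Between them, 1 region of 4633 bp in the knockout met 2 wild-type regions of 1280 and 317 bp. Kdm2a, its paralogue, had 2068 against 2211 bp at a boundary 80 bp from 9430078G10Rik.

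Nsd1, which encodes an H3K36 dimethyltransferase, had 896 bp in wild type and 1920 bp in the knockout within the window of its boundary (chromosome 13, 55209782). In the wild type 3 separate regions lay at 808 to 1703, 2549 to 3665 and 5583 to 6103 bp inside the gene, with authors' folds of 5.46, 5.72 and 2.86. In the knockout 1 region ran from 581 to 7031 bp, with a fold of 17.7 in its own list. With both lists held to a −log10 q of at least 10, or to their 20000 strongest regions, no wild-type region inside the window was retained and the difference at Nsd1 was 1920 bp. Setd2, which encodes the enzyme for H3K36me3, had 4509 against 5001 bp. Its domain was 6421 bp wide in wild type and 7682 bp in the knockout, and reached 2008 and 3832 bp into the gene. Nsd2 had 4580 against 4575 bp, and Nsd3 had 3695 against 3993 bp.

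The direction of spread could be read for the 27 marked members with a listed strand. The domain reached further into the gene in the knockout for 21 and less far for 6, with medians of 2076 bp and 1968 bp in the wild type. These shares of 77.8% and 22.2% compare with 50.7% and 48.3% of the 10166 genes marked in both lists that have a listed strand. On the upstream side, it reached further in the knockout for 13 and less far for 14, with medians of 1246 bp and 1295 bp in the wild type, where 42.7% and 56.0% of all such genes did so. By count, a longer reach in the knockout was more frequent on the transcribed side among the members, and also, by a smaller margin, among all such genes. The difference between members and other genes was not tested. In each list the domain was longer downstream than upstream for most of these members, 21 of 27 in wild type and 24 of 27 in the knockout, as for 72.7% and 74.3% of all such genes. Over all 39 marked members, 27 domains were wider in the knockout and 12 were narrower, against 47.7% and 52.1% of genes marked in both lists. Their median widths were 3353 bp in wild type and 3684 bp in the knockout. Of the 39, 14 (35.9%) lay in the widest 5% of wild-type domains, 13 (33.3%) in the widest 5% of knockout domains and 10 (25.6%) in both. That 5% is of all domains, at gene starts or elsewhere, and it held 15.0%, 13.3% and 9.58% of genes marked in both lists.

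Coverage over the gene body, from annotated start to end, was greater in the knockout at 32 of 41 members and smaller at 9, against 34.6% and 35.2% of all genes. Of the 39 marked members, 31 were longer and 8 shorter, against 50.1% and 47.0% of genes marked in both lists. The members' median difference was 228 bp, against 0 bp for all genes. Members are long genes, with a median of 43.1 kb against 22.2 kb for genes marked in both lists, and the part of gene length in these counts was not tested. The longest differences were at Nsd3 (6268 bp in the wild type, 15419 bp in the knockout), Kdm6a, Kmt2a, Kdm2b (6635 against 10602 bp), Jarid2 and Nsd1 (3912 against 7303 bp). At the other end, Kdm1a had 2819 against 2047 bp, Ezh2 3604 against 3069 bp and Setdb1 2260 against 1780 bp. Among the 7 H3K4 methyltransferases all were longer in the knockout, by 10 bp for Kmt2b up to 4603 bp for Kmt2a. The 5 H3K9 methyltransferases gave the lowest median, −7 bp, with 2 longer and 3 shorter. The T cell markers, were longer over the gene body in the knockout at 18 of 18.

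**Figure D3:**
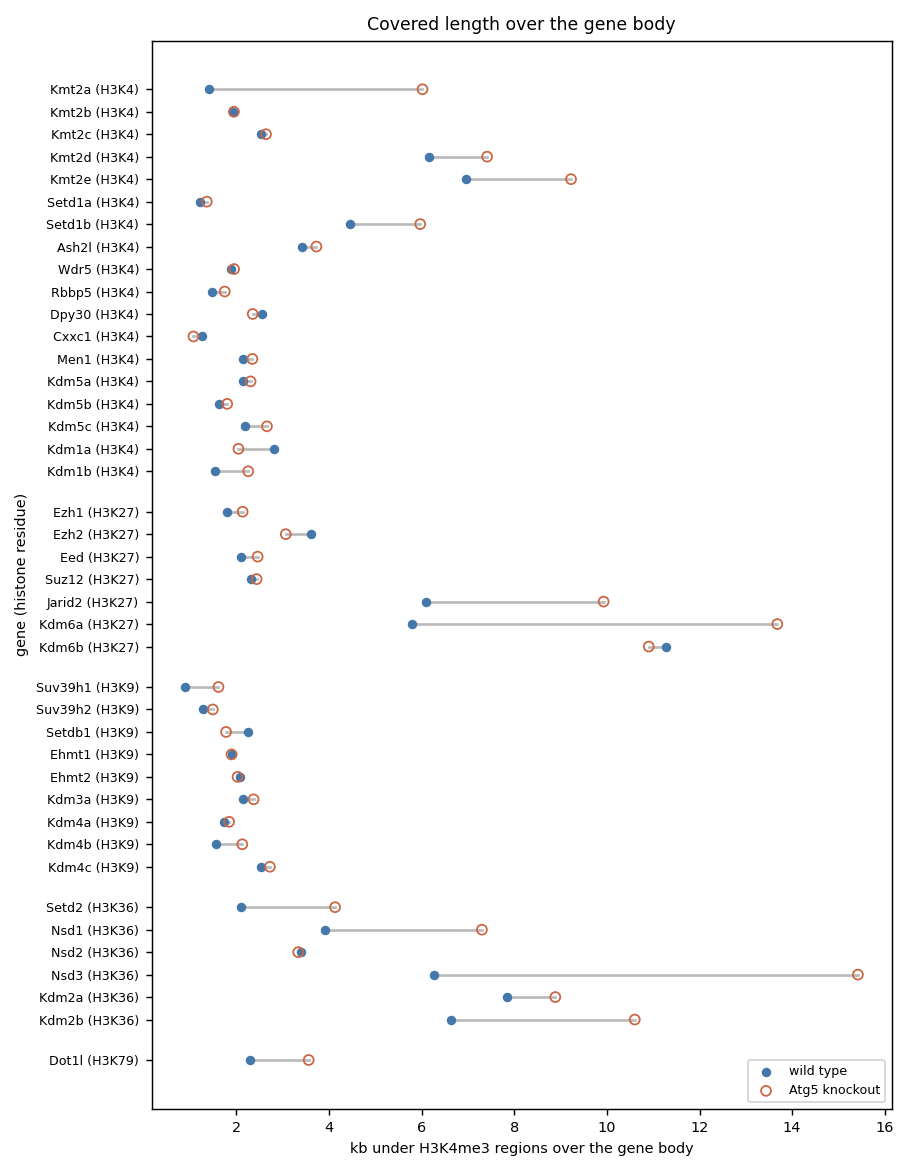
Covered length over the gene body in kb (x axis) for the 41 members (y axis, by residue) in wild type (filled) and the Atg5 knockout (open), 1 library each. Nsd3, Kdm6a and Kmt2a show the longest gains, whereas Kdm6b is nearly equal in both (11276 and 10905 bp).

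Regions counted as inside a member overlapped its gene bounds, more than 2.5 kb from its 5′ end. They numbered 31 in wild type and 47 in the knockout. Some ran past the far end of the gene, next to Prkag1 at Kmt2d, Map4k2 at Men1 and Plpp5 at Nsd3. Each of those overlapped a region of the other list. Of the wild-type regions 6 (19.4%) met no knockout region, and of the knockout regions 28 (59.6%) met no wild-type region. Over all genes marked in both lists these shares were 31.8% and 41.9%. The members' counts also include Dpy30 and Kdm4c, unmarked at the 5′ end used, with 1 shared region each in each list, whereas that background leaves such genes out. The 28 regions of the knockout alone lay in 12 of the 39 marked members and the 6 of the wild type alone in 6, where 2529 (19.97%) and 2051 (16.2%) of the 12667 genes marked in both lists held such a region. Those of the knockout alone had a median width of 691 bp and a median authors' fold of 4.70, against 18.5 for the 19 shared knockout regions. With both lists held to a −log10 q of at least 5 the count was 18, and to at least 10 it was 11, where shares over all genes are not given. The 11 include regions of Jarid2, Kdm6a and Kdm2b that met a wild-type region before the filter removed it. Of the 28, Nsd3 and Jarid2 held 5 each, Kdm6a 4 and Kmt2a 3.

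These regions formed a run in 3 of the genes. In Nsd3, which encodes another H3K36 methyltransferase, the 5 regions lay between 9871 and 24970 bp from the boundary. Another at 6913 bp overlapped a shorter wild-type region. In Kdm6a, the 4 regions lay between 14262 and 34268 bp from the start, and the widest spanned 2859 bp (chromosome X, 18186852 to 18189710). Among them lay a knockout region from 28021 to 29542 bp that overlapped a wild-type region. In Jarid2, the 5 regions lay between 77807 and 109775 bp from the start, downstream of a region of 2339 bp that overlapped a wild-type region of 1562 bp. The strongest of those 5 had a fold of 12.2 in the knockout list (chromosome 13, 44810647 to 44812191). Wild-type regions without a knockout counterpart lay in Kmt2c, Kdm1a, Jarid2, Nsd1, Nsd3 and Dot1l, 1 in each.

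**Figure D4:**
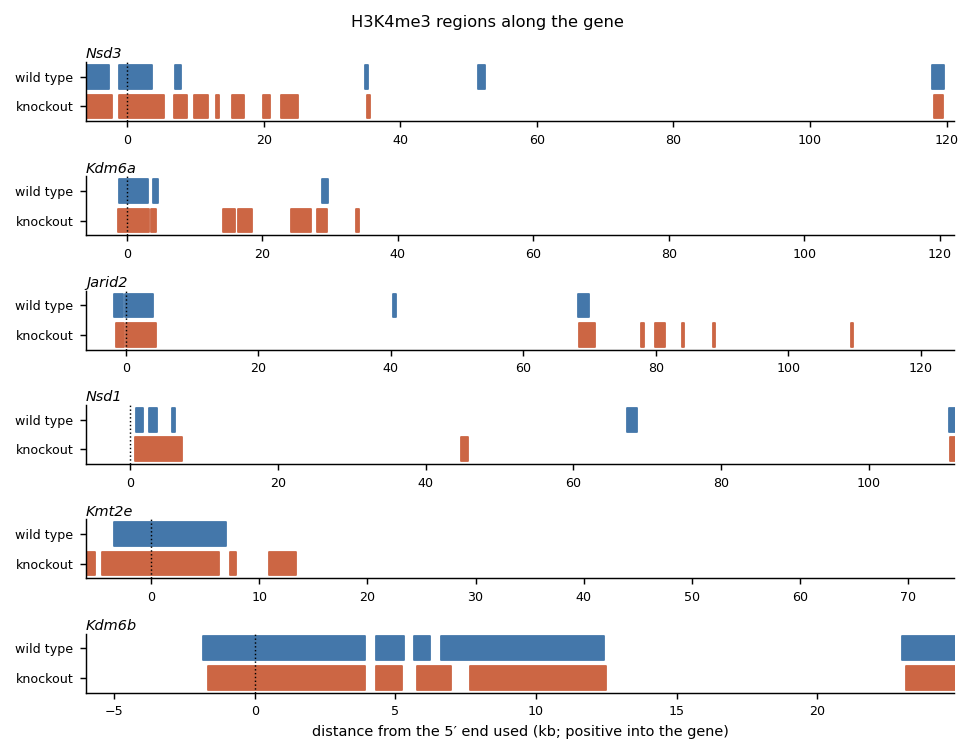
H3K4me3 regions along 6 members, in kb from the 5′ end used and positive into the gene, in the wild type (upper bar) and the Atg5 knockout (lower bar). Nsd3, Kdm6a and Jarid2 carry runs of regions in the knockout alone, Nsd1 has 1 long knockout region over 3 wild-type ones, and Kdm6b is alike in both.

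Grouped by residue, counts of longer and shorter members were 11 and 5 of 18 for H3K4, 4 and 3 of 7 for H3K27, 5 and 3 of 9 for H3K9, and 5 and 1 of 6 for H3K36. The medians were 57.5, 133, 29 and 395 bp. These counts and medians include Dpy30 for H3K4 and Kdm4c for H3K9, which had no coverage in either list. Without them the medians were 79 bp for H3K4 and 53 bp for H3K9. Writers with their complexes were longer for 18 of 28 and shorter for 8, and demethylases for 8 of 13 and 4. Of genes marked in both lists, 45.7% were longer and 53.2% shorter, and of all protein-coding genes 30.7% and 34.4%. With 1 library per genotype, differences between these groups, or from that background, were not tested.

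Other genes of the same pathways, from lists drawn up for comparison, held both longer and shorter genes in each list, as the members did. For comparison, 63.4% of the 41 members were longer, with a median difference of 91 bp. Of genes marked in both lists, 45.7% were longer and 53.2% shorter, with a median of −23 bp. Of 19 further H3K4 genes, 9 were longer in the knockout and 7 shorter. Bod1l, a partner of the SETD1 complexes, had the longest difference there, 3367 bp in wild type and 4104 bp in the knockout. Of 26 further Polycomb genes, 12 were longer and 13 shorter. Cbx7, a PRC1 subunit that reads H3K27me3, had 3721 against 4483 bp, and Rbbp4, a histone chaperone of PRC2, had 3005 against 3957 bp. Bmi1, a PRC1 subunit, had 3190 against 2550 bp. Of 17 further H3K9 genes, 10 were longer (58.8%) and 6 shorter, with a median difference of 154 bp. Gains of at least 500 bp were found in 4 of them (23.5%), against 12.2% of the 41 members and 12.1% of genes marked in both lists. Kdm4d, an H3K9 demethylase gene, had 2642 against 3838 bp, and Atf7ip, which stabilises SETDB1, had 3526 against 4524 bp. Of 17 genes linked to H3K36, H3K79 and H4K20, 8 were longer and 7 shorter, with Mllt6 at 2904 against 3764 bp and Setmar at 2118 against 1181 bp. Among 18 proliferation genes, 9 were longer and 9 shorter, with a median difference of 10.5 bp, and among 18 housekeeping genes 6 were longer and 9 shorter, with a median of −14 bp. Within these last lists, Pcna had 3549 against 2924 bp and Sdha 2649 against 3587 bp.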

How the data were processed

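Regions of the 2 H3K4me3 libraries were used. Per the submitters' processing notes, MACS2 was used with the GRCm38 (mm10) build. Its version and settings, the aligner, read filters and whether input served as control were not given in the sources used here. One library lies behind each deposited list. The deposited fold is a ratio, namely the summit's reads over the background expected locally, as MACS2 defines it. It is the authors' own value and describes regions within 1 list. The deposited −log10 p was not used, the deposited −log10 q was used to filter regions, and the deposited score, which is the −log10 q times 10, was not used.

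The autosomes 1 to 19 and the X and Y chromosomes were used, and 65 wild-type and 64 knockout regions elsewhere were left out. Gene bounds came from a RefSeq table (GRCm38.p6). The 5′ end was the outermost start in a RefSeq promoter table of that build, which held 17491 of 21883 protein-coding genes and 29 of 41 members. For the other 12 members (Kmt2b, Kmt2e, Setd1b, Ash2l, Cxxc1, Kdm5a, Kdm6b, Kdm4b, Nsd1, Nsd2, Nsd3 and Kdm2a) it was the gene boundary with more covered length, summed over both lists. For these the boundary may be the 3′ end. Lengths depend on library depth and on the calling threshold. Regions were called shared at an overlap of at least 1 bp. All 41 members could be named, and up to 4 genes of each comparison list with the largest difference. One such gene is not reported here. Members and lists were chosen with earlier results of these data known. Alternatives were other q limits, equal list lengths, other windows, other joins and other 5′ ends. The computation was tested on simulated data and ran under pandas 2.3.3, NumPy 2.4.6 and Python 3.11.15, with figures from Matplotlib 3.10.9.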

Additional observations from a re-analysis of the deposited data

How the results depend on the processing

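Of 169 recomputed values under 13 alternative settings, 131 stayed within the limits set for a change (1.5 times for a count) and 38 moved further. A change of direction could be scored only for medians and for differences of single genes, and 0 of these changed direction. A fall to 0 bp did not score as a change of direction, and counts and percentages could not be scored this way. Members marked at the 5′ end numbered 36 in wild type and 39 in the knockout with the 20000 strongest regions of each list. At a −log10 q of at least 10 they numbered 38 and 39. Where a region had to overlap the 5′ end itself, they numbered 34 and 36. The window mattered most. Within 1 kb of the 5′ end, 11 members were longer in the knockout, a share near the 30.7% of genes marked in both lists. Of the 39 marked members, 6 were shorter (15.4%), a share below the 34.9% of those genes. A gene whose regions fill the 1 kb window in both lists cannot differ in it, which limits these counts. At 1 kb, 1 member gained at least 500 bp, 0 lost as much, and the median difference was 0 bp. By residue the longer members were then 3 for H3K4, 2 for H3K27, 3 for H3K9, 3 for H3K36 and 0 for H3K79, and in the wider lists 3 for H3K4, 5 for Polycomb, 4 for H3K9 and 2 for H3K36, H3K79 and H4K20. Within 5 kb, 27 members were longer and 13 shorter, 11 gained and 5 lost at least 500 bp, and Dot1l was not longer (0 of 1 for H3K79). The members' median was 210 bp there, against −27 bp for genes marked in both lists, of which 47.2% were longer. At equal list lengths of 20000 regions, and among members with a listed start, an alternative added after the data were seen, 0 members lost at least 500 bp. Without the 2.5 kb next to the 5′ end, 20 members had more gene body covered in the knockout and 5 less. Of the 39 marked at the 5′ end these were 19 (48.7%) and 4 (10.3%), against 27.1% and 22.5% of genes marked in both lists. Regions inside members in the knockout alone numbered 18 at a −log10 q of at least 5 and 11 at one of at least 10, where those of the wild type alone numbered 3. The 11 include regions whose wild-type counterpart was removed by the filter. At these alternative settings, shares over all genes are not given for marked genes, for gains and losses of at least 500 bp or for regions inside genes. Those counts are therefore not set against a background. No paired analysis was possible because each genotype has 1 library. The depth of the libraries is unknown, so no interval on a covered length can be given.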
